A study of Nannochloropsis oceanica with 15 samples.

Results

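Cells of the marine alga Nannochloropsis oceanica were compared after 24 h of blue light with cells sampled in white light at the moment of the switch (0 h). The comparison was chosen by its groups: 3 libraries of blue 24 h and 3 of white 0 h, 6 of the 15 libraries of the series. All were wild-type IMET1, a single-celled strain, and all columns were aerated with ordinary air (0.04% CO2) and kept at 25 °C. Light was continuous in every group, at 80 ± 5 µmol photons per square metre per second. The other 9 libraries were blue 12 h, red 12 h and red 24 h, with 3 each. Of 9756 gene models, 9576 had an FPKM (fragments per kilobase of gene model, scaled to the depth of the library) of at least 1 in 3 or more of the 6 libraries and were tested. The other 180 were not tested, and the median of their highest values in the 6 libraries was 0.561 FPKM. White light was sampled only at 0 h here, so colour, hours since the switch and age of the culture cannot be told apart in this comparison.

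Nannochloropsis belongs to the eustigmatophytes, stramenopile algae known for storing oil. Its plastid carries chlorophyll a, which absorbs blue and red light, with violaxanthin and other carotenoids, which absorb blue. Stramenopile algae sense blue light through aureochromes, which are transcription factors with a blue-light sensor domain, and through cryptochromes. The deposited tables pair no ID with a gene name except DGAT1A, and 0 IDs matched the 160 plastid and mitochondrial genes of the reference table. The results below are therefore given by gene model, by place on the scaffolds and by the structure of the models, and nothing is said of what an unnamed model encodes.

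The 6 libraries were of similar depth. The fragments in gene models, recovered from the steps of the low FPKM values, numbered 5239980, 6097419 and 4439031 in white and 4922456, 5444320 and 5371895 in blue 24 h. The blue 24 h libraries lay very close together, with median FPKM of 23.0 to 23.1 and sums of 593443 to 594785. White library 1 was lower than the other white libraries, with a median of 20.3 against 24.7 and 25.0 and a sum of 430453 against 523387 and 528814. Its part in the results was not tested beyond leaving it out, and the values without it stand beside the results it moves. No label tells if replicates came from separate cultures, and the p-values can then only be set against differences among libraries, possibly technical ones. In limma's tests the spread among libraries was estimated over all 15, including red 24 h library 1, which stands far from its group.

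The RNA of blue 24 h cells was spread over fewer gene models than that of white cells, as was that of blue 12 h, red 12 h and red 24 h cells. In white 609, 610 and 824 models stood below 5 FPKM, against 1385, 1389 and 1396 in blue 24 h, so that the groups did not overlap. Models at 1 FPKM or more differed less, with 9554, 9573 and 9571 in white and 9321, 9335 and 9344 in blue 24 h. Models listed at 0 numbered 26, 33 and 48 in white and 65, 65 and 74 in blue. The 100 most abundant models took 21.7% to 21.9% of the FPKM sum in white and 25.5% to 25.7% in blue. In blue 12 h 1409 to 1428 models stood below 5 FPKM and the top 100 took 26.6% to 26.8%. In red 12 h 1313 to 1317 models did and the top 100 took 25.3% to 25.4%. The red 24 h libraries were further apart, with 1176 to 1817 models below 5 FPKM and 27.2% to 38.4% in the top 100. Each of the differences of blue 24 h from white gave p = 0.1 in an exact two-sided permutation test over 3 against 3 libraries, which is the smallest p the design allows, and 0.11 after Benjamini-Hochberg adjustment over the 11 library measures tested. In such bulk RNA, fewer cells of a kind and less of an RNA in each cell cannot be told apart.

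Most gene models differed between blue 24 h and white 0 h, and the large differences were mostly losses. In limma's test with Benjamini-Hochberg adjustment over all tested models, 5274 passed at 0.05, which is 55.1% of the tested models. Of these, 2983 rose (31.2%) and 2291 fell (23.9%). Of all calls, 2216 (23.1% of the tested models) were of 2-fold or more, 816 rises (8.52%) and 1400 falls (14.6%). At 4-fold or more, 51 rose (0.533%) and 789 fell (8.24%). Of the falls, 100 were of 16-fold or more and 8 of 32-fold or more, against 3 and 0 of the rises. These folds are on the log2(FPKM + 1) scale and understate the change of low models. The spread in this test came from all 15 libraries. With only the 6 libraries compared in the fit, 6632 models passed, with 3873 rises and 2759 falls.

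The losses formed a long shoulder rather than a tail. Between -2.5 and -2 on the log2 scale there were 184 models, between -3 and -2.5 there were 203, and between -3.5 and -3 there were 177. On the side of the rises the same steps held 37, 9 and 2 models. The median of all tested models was 0.14, with 5% below -2.83 and 5% above 1.20. That median depends on the scale of the libraries. It was 0.05 without white library 1, 0.22 after quantile normalization and -0.03 when libraries were scaled to equal sums, leaving out the 50 most abundant models. With that last scaling 43.2% of the calls were rises, against 56.6% as deposited, 48.5% without white library 1 and 45.8% with voom weights on the recovered fragments. The rises of 2-fold or more numbered 636 without white library 1, 502 with equal sums and 1221 after quantile normalization, while the falls of that size numbered 1289 to 1702 over the 29 alternatives.

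**Figure D1:**
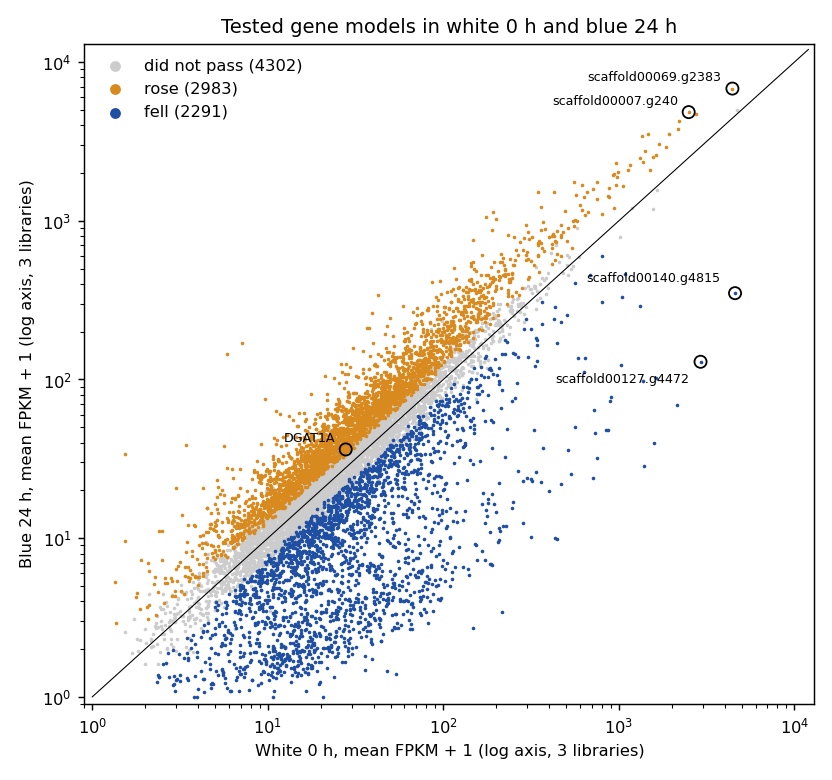
Mean FPKM + 1 in white 0 h (x, log axis) against blue 24 h (y, log axis) for the 9576 tested gene models, each group a mean of 3 libraries, coloured by limma's adjusted p at 0.05. The line marks equal values, circles mark the named models, and the blue points form a broad cloud well below the line, while the orange points stay close above it.

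Seen as shares of the RNA, the losses emptied a part of the white-light transcript pool. The models that fell 4-fold or more held 13.3% ± 0.0627 (SD, n = 3) of the FPKM sum in white and 0.916% ± 0.00165 in blue 24 h. Their median level was 29.6 FPKM in white, 2.82 in blue 12 h and 2.47 in blue 24 h. The 816 models that rose 2-fold or more held 11.7% ± 0.0369 of the sum in white and 25.2% ± 0.0313 in blue, with median levels of 29.7, 68.8 and 74.3 FPKM in white, blue 12 h and blue 24 h. These sets were chosen by the same difference, so the values describe them and test nothing.

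The most abundant transcripts changed places. Of the 100 models with the highest mean FPKM in white, 59 were also among the 100 highest of blue 24 h, which is 59% of each list. Of the white list, 54 rose and 32 fell, with 24 falls of 4-fold or more. Of the blue list, 92 rose and 0 fell by limma's test, and 42 of those rises were of 2-fold or more. Over all tested models 31.2% rose and 23.9% fell, with 8.52% rising 2-fold or more and 8.24% falling 4-fold or more. Choosing a list by its level in 1 group favours losses in the white list and gains in the blue list, so these counts are a description.

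The 2 largest losses in FPKM were of transcripts that ranked 2, 3 or 4 in the white libraries. The model scaffold00140.g4815 (scaffold00140, 855415 to 857702, plus strand, 6 exons, 1331 nt of exons) had 4040, 4846 and 4873 FPKM in the white libraries and 356, 347 and 344 FPKM in the blue 24 h libraries. It ranked 2, 3 and 2 by level in the white libraries and 223, 230 and 236 in the blue ones. Its mean was 4586 ± 473.5 FPKM (SD, n = 3) in white and 349 ± 6.23 in blue 24 h, 13.2-fold lower. The log2 difference was -3.71 ± 0.16 (SE) with an adjusted p of 7.54e-11 in limma. The 2 largest losses and the 2 largest gains were picked among models that passed and whose groups did not overlap. Neither trait is thus further support. Of all tested models, 29.1% lay lower in blue 24 h with no overlap and 42.9% higher. In all 28 alternatives run for it, scaffold00140.g4815 passed with the same direction.

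The model scaffold00127.g4472 (scaffold00127, 915300 to 917694, minus strand, 4 exons, 1815 nt) ranked 4 in each white library and 804 to 867 in the blue 24 h libraries. It had 2524, 3075 and 3151 FPKM in white and 128, 124 and 133 FPKM in blue 24 h, with no overlap, which its choice required. Its mean fell from 2917 ± 342 to 128 ± 4.41 FPKM, 22.7-fold lower. On the log2 scale that is -4.49 ± 0.11 (SE), with an adjusted p of 9.84e-13 in limma, and no alternative of the 28 ended the call or turned the direction. It stands alone: the nearest tested models begin or end 7006 and 7934 nt away, where the median gap between neighbours is 124 nt. Of those neighbours, the one before it rose (0.97 ± 0.13 on the log2 scale, limma adjusted p = 1.92e-05) and the one after it did not pass (-0.31 ± 0.14, 0.0775). Together the 2 falls took 1.51% to 1.52% of the FPKM sum of the white libraries and 0.0792% to 0.0816% in blue 24 h.

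The 2 largest gains in FPKM were of models that were already abundant in white, and they were modest in fold. The model scaffold00069.g2383 (scaffold00069, 445093 to 446789, plus strand, 5 exons, 1258 nt) had 3618, 4854 and 4820 FPKM in white and 6629, 6965 and 6824 FPKM in blue 24 h, where it was the most abundant model of each library. Its mean was 1.54-fold higher (log2 difference 0.63 ± 0.13 SE, limma adjusted p = 0.000759). White library 1 was the lowest, and without it the difference was 0.49 with its call kept. After quantile normalization, which gives the top ranks of every library the same values, it was 0.39 and no longer passed (adjusted p = 0.0934).

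The model scaffold00007.g240 (scaffold00007, 625972 to 627453, minus strand, 1 exon, 1482 nt) had 2156, 2660 and 2671 FPKM in white and 4797, 4837 and 4874 FPKM in blue 24 h. All blue libraries lay above all white ones, which its choice required. Its mean was 1.94-fold higher (log2 difference 0.96 ± 0.18 SE, limma adjusted p = 0.000389). None of the 28 alternatives ended the call, and the difference ranged from 0.43 to 1.01. Both models rose from rank 2 or 3 and rank 6 in white to ranks 1 and 3 in blue 24 h.

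DGAT1A encodes a diacylglycerol acyltransferase, which makes the storage oil triacylglycerol from diacylglycerol. Unlike the other named models, its model lies on no scaffold but on a sequence named isotig00738 (1 to 2030, plus strand, 1 exon). Its libraries held 288, 371 and 294 fragments in white and 337, 392 and 409 in blue 24 h, for 20.9, 28.3 and 31.1 FPKM in white and 33.4, 35.2 and 37.1 FPKM in blue. The groups did not overlap, as was true of 42.9% of the tested models in this direction and 29.1% in the other. The log2 difference of 0.40 ± 0.17 (SE) did not pass limma's test over all models (adjusted p = 0.0600; 0.00269 to 0.363 over 28 alternatives, 11 of which passed). It passed with only the 6 libraries compared in the fit (0.00458) and after quantile normalization (0.00601), but not with equal sums (0.363). It also passed without white library 3 (0.0336), and when red 24 h lost its first (0.00343) or its second library (0.0456). Without white library 1 the difference was 0.24 and did not pass (0.259). With red 24 h library 1 left out as well, the same difference passed (0.0144). Its level did not move detectably from blue 12 h to blue 24 h, with a difference of -0.01 ± 0.17.

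**Figure D2:**
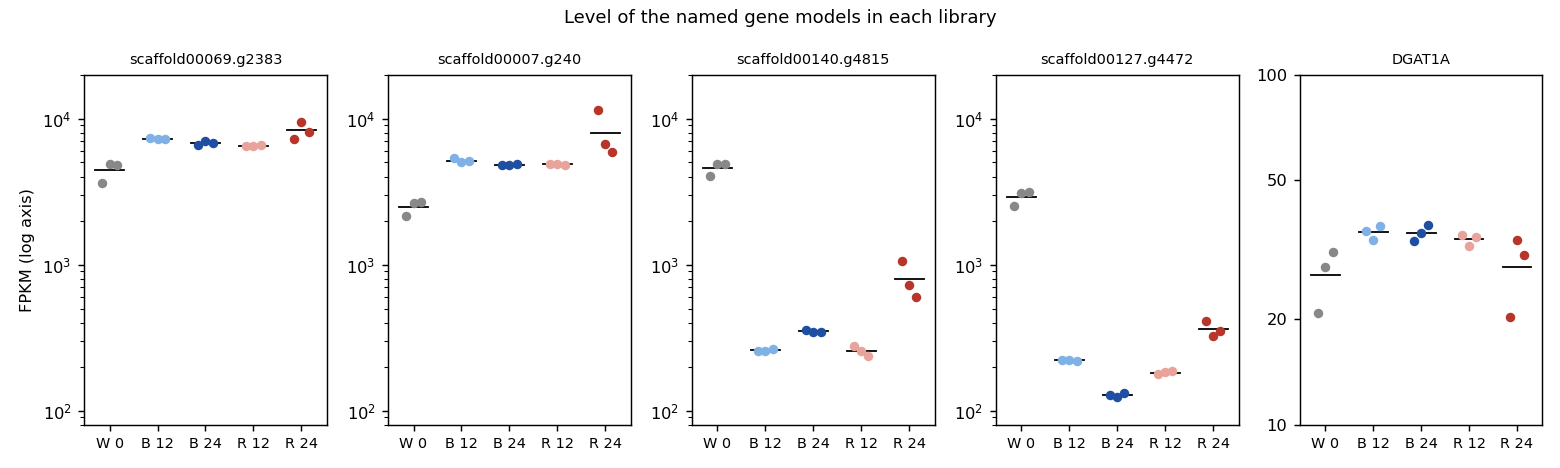
FPKM (log axis) of the named gene models in each of the 15 libraries; W, B and R are white, blue and red light with the hours since the switch, points are libraries and bars are means of 3. From white to blue 24 h, scaffold00069.g2383 and scaffold00007.g240 rise modestly, scaffold00140.g4815 and scaffold00127.g4472 fall more than 10-fold, and DGAT1A, on a lower axis, lies slightly higher.

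Some of the losses lay side by side along a scaffold. There were 14 runs of 5 or more neighbouring tested models that all passed and fell at least 2-fold, holding 113 models on 13 scaffolds, against 2 runs of rises with 10 models. Of the runs of falls, 5 reached the last tested model of their scaffold and 1 the first tested model. The runs were picked by their change, so their values are a description. The coordinates are those of the deposited models, named IMET v2.

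The run with the most RNA in white light was on scaffold00140, from 848952 to 869795, and holds scaffold00140.g4815 as its second model. The first, on the minus strand with its start next to that of scaffold00140.g4815, fell from 2156 ± 270 to 68.2 ± 2.53 FPKM (SD, n = 3), 31.6-fold. The third fell from 711 ± 82.7 to 23.0 ± 0.782 FPKM, 30.9-fold. The remaining 2 were low even in white, at 23.2 ± 3.17 and 15.4 ± 2.22 FPKM, and fell to 1.39 ± 0.311 and 0.785 ± 0.331 FPKM, the last on 7 to 16 fragments a library. Levels within this run thus spanned more than 100-fold in white, and their folds lay between 13.2 and 31.6. Log2 differences ran from -3.21 to -4.96. Passing limma's test was part of how the runs were picked, and the largest adjusted p here was 1.70e-08.

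A run of 7 models on scaffold00259, from 14871 to 41940, was also well expressed in white. Its medians over the 7 models were 188.9 FPKM in white, 10.2 in blue 12 h and 5.85 in blue 24 h. The second model fell from 316 ± 36.9 to 9.12 ± 1.34 FPKM, 34.7-fold, and the sixth, with 10 exons, from 267 ± 41.7 to 25.4 ± 1.10 FPKM, 10.5-fold. The run of 9 models that opens scaffold00043 (1 to 23351) went from a median of 19.7 to 3.58 FPKM. A run of 5 on scaffold00007 (839541 to 850991) went from 42.9 to 1.25 FPKM, with 1 to 17 fragments behind each blue 24 h value. The longest runs, of 29 and 15 models, reached the last tested models of scaffold00295 and scaffold00026.

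The 2 runs of rises were compact and moderate. On scaffold00095 (314690 to 325272) 5 models rose by 1.08 to 1.22 on the log2 scale, and the most abundant of them went from 249 ± 33.9 FPKM in white to 546 ± 4.32 in blue 12 h and 526 ± 12.9 in blue 24 h. On scaffold00252 (248304 to 252927), 5 models within 4.62 kb rose by 1.07 to 2.21. The middle one went from 1.40 ± 0.127 FPKM, on 4 to 7 fragments a library, to 10.1 ± 1.18, and the last from 360 ± 33.4 to 877 ± 16.6. Among the scaffolds with at least 100 tested models, scaffold00252 also had the smallest share of falls of 2-fold or more, 7.27%. The 29 such scaffolds ranged up to 21.8%, on scaffold00295, with a median of 14.3%.

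**Figure D3:**
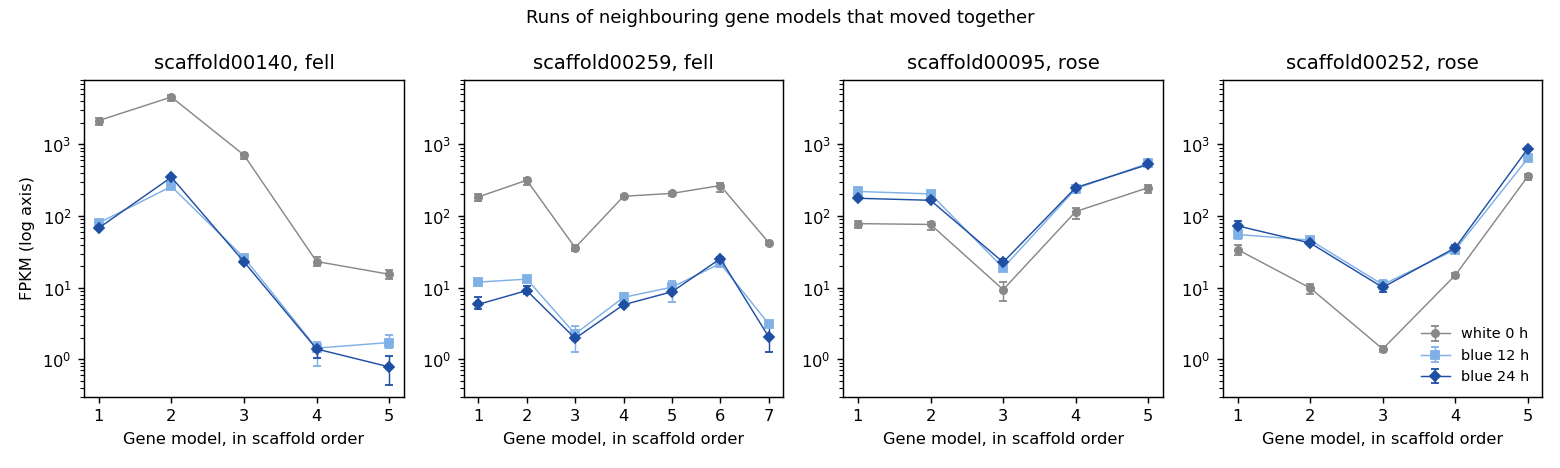
FPKM (log axis) of each gene model in 4 runs, in scaffold order (x), with means of 3 libraries and bars from the lowest to the highest library in white 0 h, blue 12 h and blue 24 h. On scaffold00140 and scaffold00259 every model lies at least 10-fold lower in blue 24 h than in white, and on scaffold00095 and scaffold00252 every model lies 2-fold or more above white, with the middle model of scaffold00252 furthest.

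The log2 differences of 9162 pairs of adjacent tested models correlated weakly, at 0.267 across pairs, which share scaffold, libraries and in part the same pair members. For 2635 pairs that start under 500 nt apart on opposite strands (divergent pairs) the value was 0.357, for 477 divergent pairs with starts further apart 0.375, for 2972 pairs on the same strand 0.267, and for 3078 pairs that end towards each other 0.164. Over all pairs, both models rose at least 2-fold in 1.65%, both fell in 4.41% and they went opposite ways in 1.82%. In the close divergent pairs these shares were 1.78%, 3.42% and 1.06%, so that joint falls were below the share over all pairs. In the divergent pairs with starts further apart they were 1.89%, 9.64% and 2.73%, on the same strand 2.02%, 5.65% and 1.85%, and in the convergent pairs 1.14%, 3.25% and 2.31%. With reads counted without a stated strand, overlapping models could share fragments, and the median gap of convergent pairs was 36 nt.

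Long models fell more often than short ones, whereas the shares differed less by number of exons. In the quartile of shortest models (188 to 1168 nt of exons), 11.8% rose and 10.7% fell at least 2-fold, against 4.94% and 19.1% in the quartile of longest (2548 to 25614 nt). Medians of the log2 difference fell from 0.27 through 0.22 and 0.11 to -0.09 over the 4 quartiles, against 0.14 for all tested models. Relative to all models the outer quartiles stood at 0.13 and -0.23, at 0.13 and -0.23 with equal sums, and at 0.10 and -0.14 after quantile normalization. The mean fragment was about as long in both groups, at 137.1 to 137.5 nt in white and 135.5 to 136.5 nt in blue 24 h. With each library's trend with exon length removed, 5446 models passed, with 779 rises and 1387 falls of 2-fold or more.

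Models with 1 exon (255 rises and 442 falls of 2-fold or more among 2935) had shares of 8.69% and 15.1%, close to those of all models. Those with 2 exons had 9.23% and 14.8%, and those with 3 to 7 exons 8.49% and 13.8%. Models with 8 or more exons had 6.06% and 16.5% (44 and 120 of 726), and their median length was 2572 nt against 1723 nt overall. From the shortest to the longest quartile, 16.7%, 16.2%, 14.5% and 17.8% of the models with 8 or more exons fell at least 2-fold, against 12.6%, 12.6%, 17.7% and 19.2% of those with 1 exon. The first of these shares rests on 3 of 18 models.

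Places near scaffold ends held more losses. Among 47 scaffolds with at least 20 models, 23.3% of the first 5 models (52 of 223) and 25.3% of the last 5 (55 of 217) fell at least 2-fold, against 14.1% of the inner models (1206 of 8583). Of the 55 falls among the last models, 25 belonged to the runs above, and outside the runs the share was 15.6%. Among the first models 6 of the 52 did, and the share outside was 21.2%, against 13.2% of the inner models. These falls at the start lay on 28 of the 47 scaffolds. Models on scaffolds with under 10 models had shares of 5.97% for rises and 14.4% for falls.

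**Figure D4:**
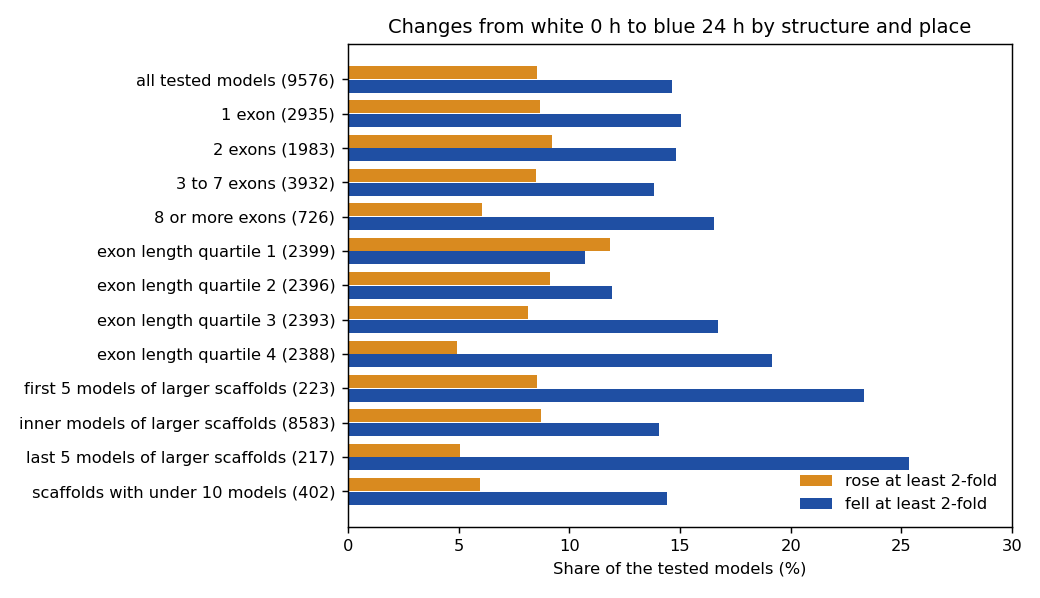
Share of tested gene models (x, in percent) that passed limma's test and rose or fell at least 2-fold from white 0 h to blue 24 h, by number of exons, quartile of exon length and place on the scaffold, with the number tested in brackets. Bars for falls lengthen from the shortest to the longest quartile and are longest for the first 5 and last 5 models of larger scaffolds.

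The white-light levels of the models that fell, rose or did not pass lay close together. Median FPKM in white was 24.4 for the falls, 27.9 for the rises and 21.3 for the models that did not pass, against 23.8 for all tested models. The falls of 4-fold or more had a median of 29.6 FPKM and the rises of that size 25.2. No test was made of these levels.

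Some models crossed the level of 1 FPKM in all libraries of both groups. Of the 9521 models with at least 1 FPKM in all white libraries, 153 (1.61%) were below 1 in all blue 24 h libraries, and 152 of these fell by limma's test. Their median was 8.76 FPKM in white, on a median of 84 fragments a library, and 0.454 in blue 24 h, on 4 fragments. In 45 of them every white library had at least 10 FPKM, and 4 were listed at 0 in all blue 24 h libraries. At 12 h of blue light, 88 of the 153 were below 1 FPKM in all libraries and 19 at or above 1 in all. Of the 150 models below 1 FPKM in all white libraries, 4 (2.67%) had at least 1 in all blue 24 h libraries, and all 4 rose. Their medians were 0.451 and 5.29 FPKM, and 3 of them have 1 exon. The sets were chosen by levels in these same libraries, so the falls and rises called in them describe them and test nothing.

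How blue 24 h differs from blue 12 h was tested directly, with no white library in the contrast. Between the times 695 models passed limma's test (7.26% of those tested), 430 higher (4.49%) and 265 lower (2.77%) at 24 h, and 166 of them (1.73%) by 2-fold or more. The count rests on the estimate of spread shared with the red 24 h group. It was 3590 with only the 6 blue libraries in the fit, 3809 with array weights, 2450 without red 24 h library 1 and 353 to 398 without any 1 of the 6 blue libraries. Of the calls 61.9% were higher at 24 h, against 51.0% at the same median and 50.1% with voom.

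Of the 430 models higher at 24 h, 221 had fallen from white (51.4%, against 23.9% of all tested models), 104 had risen (24.2%, against 31.2%) and 105 were not called. Their median went from 34.7 FPKM in white to 14.3 at 12 h and 24.4 at 24 h. Of the 265 lower models, 177 had fallen from white (66.8%) and 37 had risen (14.0%), with medians of 38.3, 20.8 and 11.0 FPKM. Both contrasts use the blue 24 h libraries, which by itself favours rises among the higher set and falls among the lower. Of the 789 models that fell 4-fold or more, 53 (6.72%) were higher and 115 (14.6%) lower at 24 h than at 12 h. Over all tested models these shares were 4.49% and 2.77%. Of the 51 that rose 4-fold or more, 10 (19.6%) were higher and 0 lower by limma's test. Their median was 25.2 FPKM in white, 109.9 at 12 h and 123 at 24 h.

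Of the named models, scaffold00127.g4472 went on falling, from 223, 222 and 219 FPKM at 12 h to the 124 to 133 FPKM of 24 h. The log2 difference between the times was -0.78 ± 0.11 (SE) with an adjusted p of 0.000601 in limma, and none of the 28 alternatives ended that call. The model scaffold00140.g4815 had 256, 255 and 266 FPKM at 12 h, below all its values at 24 h, with a log2 difference of 0.43 ± 0.16 that did not pass (adjusted p = 0.140) but did without red 24 h library 1 (0.000607). The differences of scaffold00069.g2383 (-0.10 ± 0.13) and scaffold00007.g240 (-0.09 ± 0.18) did not pass. Each passed in 1 of the 28 alternatives, limma's fit of only the 6 blue libraries (adjusted p = 0.00342 and 0.00893).

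Red light for 24 h gave a comparison matched in time. Between blue 24 h and red 24 h 1158 models passed (12.1% of those tested), 546 higher (5.7%) and 612 lower (6.39%) in blue, and 257 (2.68%) by 2-fold or more. The large losses tended to be deeper in blue. Of the 789 models that fell 4-fold or more from white in blue 24 h, 284 were lower in blue than in red (36.0%) and 3 higher. Their medians were 2.47 FPKM in blue and 4.26 in red, although choosing the set by its blue values favours this direction. These calls were counted in the main fit only. In the fit of only the 6 libraries of the contrast, 35 of all tested models were lower in blue and 9 higher. Red 24 h library 1 stands far from its group, and without it 1746 models passed. The count was 3393 without red 24 h library 3, 457 to 480 without any 1 blue 24 h library, and 44 with only the 6 libraries of the contrast in the fit. Of the calls 47.2% were higher in blue, against 61.8% with equal sums and 38.6% at the same median. That share was 39.3%, 56.3% and 59.3% without red 24 h libraries 1, 2 and 3, 36.7% to 37.7% without any 1 blue 24 h library, and 20.5% in the fit of 6 libraries.

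Both named falls were deeper in blue. In red 24 h scaffold00140.g4815 had 1057, 721 and 601 FPKM and scaffold00127.g4472 had 412, 323 and 352 FPKM, above all the blue 24 h values. The differences of blue from red were -1.14 ± 0.16 (SE, limma adjusted p = 0.000551) and -1.49 ± 0.11 (5.76e-06) on the log2 scale. Both passed without red 24 h library 1, and only the former lost its call in any of the 28 alternatives, in the fit of only 6 libraries (0.0908). The gain of scaffold00007.g240 was smaller in blue, where it had 4797 to 4874 FPKM against 11353, 6743 and 5928 in red (difference -0.67 ± 0.18, adjusted p = 0.0300). Without red 24 h library 1 the difference was -0.39 and passed (0.00485). The call was lost without any 1 blue 24 h library (0.0867 to 0.0926) and in the fit of only 6 libraries (0.311). After quantile normalization the difference was 0.06 and did not pass (0.566).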

How the data were processed

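The authors deposited FPKM for each library, in a table for each group, and exon positions of the gene models (other values), which give structure and place. Cufflinks 2.0.4, TopHat and TopHat2 2.0.4 are named by the submitters' processing notes. Settings, strand handling and the total by which FPKM was scaled are not given in the sources used here. The repeated column name in the red 12 h table was resolved by the sample name in its rows. Fragments were recovered as FPKM times exon length less the mean fragment length, divided by the value of 1 fragment: checked over values of up to 30 fragments and effective lengths from 500 nt, 100% were whole within 0.1.

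Models with at least 1 FPKM in 3 or more of the 6 libraries were tested on log2(FPKM + 1) with limma 3.58.1 (R 4.3.3; lmFit, contrasts, eBayes with trend, two-sided). The fit held all 15 libraries, each group with its own mean. Adjustment was by Benjamini-Hochberg over all tested models of a comparison. The code was tested on simulated data. Voom, an alternative on recovered fragments, used median-ratio library sizes. Exact permutation tests were run in scipy 1.17.1 and descriptions in pandas 2.3.3 (Python 3.11.15).

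Named models are the 2 with the largest gain and the 2 with the largest loss in mean FPKM among those that passed, whose groups did not overlap and with at least 500 nt of exons, and any model with a name. The comparison, lists and alternatives were chosen with earlier results of these data known. No sequences were available to print.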

Additional observations from a re-analysis of the deposited data

Results flagged for a closer look

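The change from white light of 3 named models differed between blue 24 h and another group, as tested by the contrast of the 2 groups in limma's fit. The model scaffold00127.g4472 was lower at 24 h than at 12 h of blue light by -0.78 on the log2 scale (adjusted p = 0.000601), and lower than in red 24 h by -1.49 (adjusted p = 5.76e-06). For scaffold00140.g4815 the difference of blue 24 h from red 24 h was -1.14 (adjusted p = 0.000551), and for scaffold00007.g240 it was -0.67 (adjusted p = 0.0300). In the red 24 h group library 1 was the highest for all 3 models, and its part in these differences was tested only by leaving it out. All 4 calls then passed, and the differences from red 24 h were -1.39 for scaffold00127.g4472, -0.91 for scaffold00140.g4815 and -0.39 for scaffold00007.g240, the last over 1.5 times smaller.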

How the results depend on the processing

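The count from white to blue 24 h stayed within 1.5 times 5274 in 28 of 29 alternatives, with 4606 to 6833 when 1 library was left out, and was 2216 when a 2-fold change was also asked for. With that minimum the counts against blue 12 h and red 24 h were 166 and 257. Both were larger after quantile normalization (1254 and 1748), at the same median (1179 and 1811), with voom on recovered fragments (1408 and 1754), with array weights (3809 and 2835) and without white library 1 and red 24 h library 1 together (3287 and 2522). With only the groups compared in the fit they were 3590 and 44. Leaving out 1 library gave 353 to 2450 against blue 12 h and 457 to 3393 against red 24 h. The cause of these moves was not tested. No label states that replicate numbers pair the samples, and the main fit did not pair them. Same-numbered libraries of white and blue 24 h deviated together with correlations of 0.0108 to 0.0466. Of these libraries, 3 of 3 white and 2 of 3 blue 24 h ones were closest to their own number, a hint from the data only. With the replicate block 5329, 641 and 1201 models passed, and DGAT1A passed (adjusted p = 0.0419). Low values limit precision, and intervals were not computed. In blue 24 h, 1 to 17 fragments stand behind each value of the run of 5 on scaffold00007. Some models of the run of 15 on scaffold00026 have 0 to 2.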
